A study of Homo sapiens with 6 samples.

Results

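The genes examined were 54 fatty acid handling genes of the peroxisome proliferator-activated receptor (PPAR) pathway, chosen by gene name among the 60623 genes in the deposited table. They comprise 4 genes of extracellular lipolysis and surface receptors, 6 of transport proteins, 7 of binding proteins, 6 of activation, 9 of lipid droplets and lipolysis, 4 of the carnitine shuttle, 9 of mitochondrial β-oxidation, 3 of electron transfer, 3 of peroxisomal oxidation and 3 uncoupling proteins. RNA-Seq was performed on TC28a2 cells, an immortalized human chondrocyte line, treated with 2 μM mocetinostat or with its solvent DMSO for 24 hours. Mocetinostat is an inhibitor of histone deacetylases (HDACs). There were 3 samples per condition, numbered as replicates in the labels and described in the study as separate experiments. All samples come from 1 cell line, so p-values describe the spread between these cultures and not between donors.

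PPARs are nuclear receptors that bind fatty acids and their derivatives and, paired with retinoid X receptors, switch on genes of fat uptake, storage and burning. A fatty acid released from lipoproteins at the cell surface enters the cell with the help of transport proteins, is carried by small binding proteins in the cytosol, and is joined to coenzyme A by acyl-CoA synthetases. The resulting acyl-CoA is stored as triglyceride in lipid droplets, shortened in peroxisomes, or moved into mitochondria by the carnitine shuttle, where β-oxidation breaks it down and passes the electrons on to the respiratory chain. The study followed this pathway to ask how mocetinostat acts on chondrocytes apart from the transcription factor KLF4. It found the pathway enriched among upregulated genes and also among upregulated proteins measured by mass spectrometry. The protein data were not analysed here.

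The total count per sample was between 4873426 and 11031132 with DMSO and between 1619344 and 5089542 with mocetinostat, which makes rare transcripts harder to measure after treatment. Of the 54 genes, 42 passed edgeR's expression filter and were tested among 13966 genes in all. Upregulated genes (URGs) had an adjusted p under 0.05 with a log2 fold change above 1, and downregulated genes (DRGs) the same p with one below -1. These limits follow the methods. A gene that rose or fell had an adjusted p under 0.05 whatever its fold change. All p-values come from the quasi-likelihood test of edgeR and were adjusted by the Benjamini-Hochberg method over all genes tested. SE is the standard error of a log2 fold change, and levels are in CPM, counts scaled to a common library size with TMM factors (trimmed mean of M-values). For 1 gene alone, 3 against 3 samples cannot reach an exact permutation p below 0.1. Chondrocyte markers were present in all samples, with a summed level of 126 to 147 CPM with DMSO and 267 to 308 CPM with mocetinostat, most of it from *SOX9* (106 ± 13.6 and 180 ± 14.4 CPM, SD, n = 3). *CNMD* had no read in any library, and *COL9A1*, *COL11A1* and *COMP* had 8 reads or fewer in each DMSO sample. Of 7 adipocyte markers, *LEP* and *RETN* had no read in any sample and *CIDEA*, *CIDEC* and *ADRB3* had 3 or fewer in each. *ADIPOQ*, below the filter, had 1, 6 and 3 reads with DMSO and 0, 1 and 0 with mocetinostat. *CFD* (complement factor D) had 1, 2 and 1 reads with DMSO and 69, 12 and 22 with mocetinostat.

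All tested genes of extracellular lipolysis and surface receptors, binding proteins, perilipins and the carnitine shuttle rose after treatment. Of these, *FABP4*, *PLIN5* and *CPT1C* were at the filter's level in mocetinostat samples only. Genes of these groups below the filter, such as *CD36*, *PLIN1* and *CPT1B*, were not tested. Of the 8 tested genes of mitochondrial β-oxidation, 7 did not pass the test, against 4981 of all 13966 genes tested. Of the 42 genes tested, 20 were URGs, against 20.2% of all genes tested, and 1 was a DRG, against 8.18%. Without a minimum fold change, 25 rose, against 32.9% of all genes tested, and 2 fell, against 31.4%. The 3 mocetinostat values lay above the 3 DMSO values without overlap in 26 of the 42, against 33.7% of all genes tested, and below them in 2, against 32.8%. The median log2 fold change was 0.83 over the 42 genes and -0.00 over all genes tested.

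These counts, and the counts and medians of single roles below, depend on how the genes came to be listed. The study's own PPAR term, drawn from its URGs of these samples, holds 19 of the 54 genes, and all 16 of those tested were URGs, which is not independent evidence of their direction. Among the other 26 tested, 4 were URGs (*PLIN3*, *CPT1A*, *ETFB* and *UCP2*), a share of 15.4%, where 20.2% of all genes were URGs. In the same 26 genes, 1 was a DRG, 9 rose and 2 fell, and the median log2 fold change was 0.20. Setting the listed URGs aside lowers this share and this median in advance, so the 26 genes are not an unbiased comparison either. The expression filter also favored genes that are high after treatment. Of the 42 tested, 6 were at the filter's level in no DMSO sample and in all mocetinostat samples (*FABP4*, *ACSL6*, *ACSBG1*, *PLIN5*, *CPT1C* and *ACOX2*), and all 6 were URGs. Among the 36 tested genes that reached the filter's level in all 3 DMSO samples, 14 were URGs and 1 was a DRG. The matching share over all genes was not computed. Of these 14 URGs, all but *PLIN3*, *CPT1A*, *ETFB* and *UCP2* are in the study's term.

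**Figure D1:**
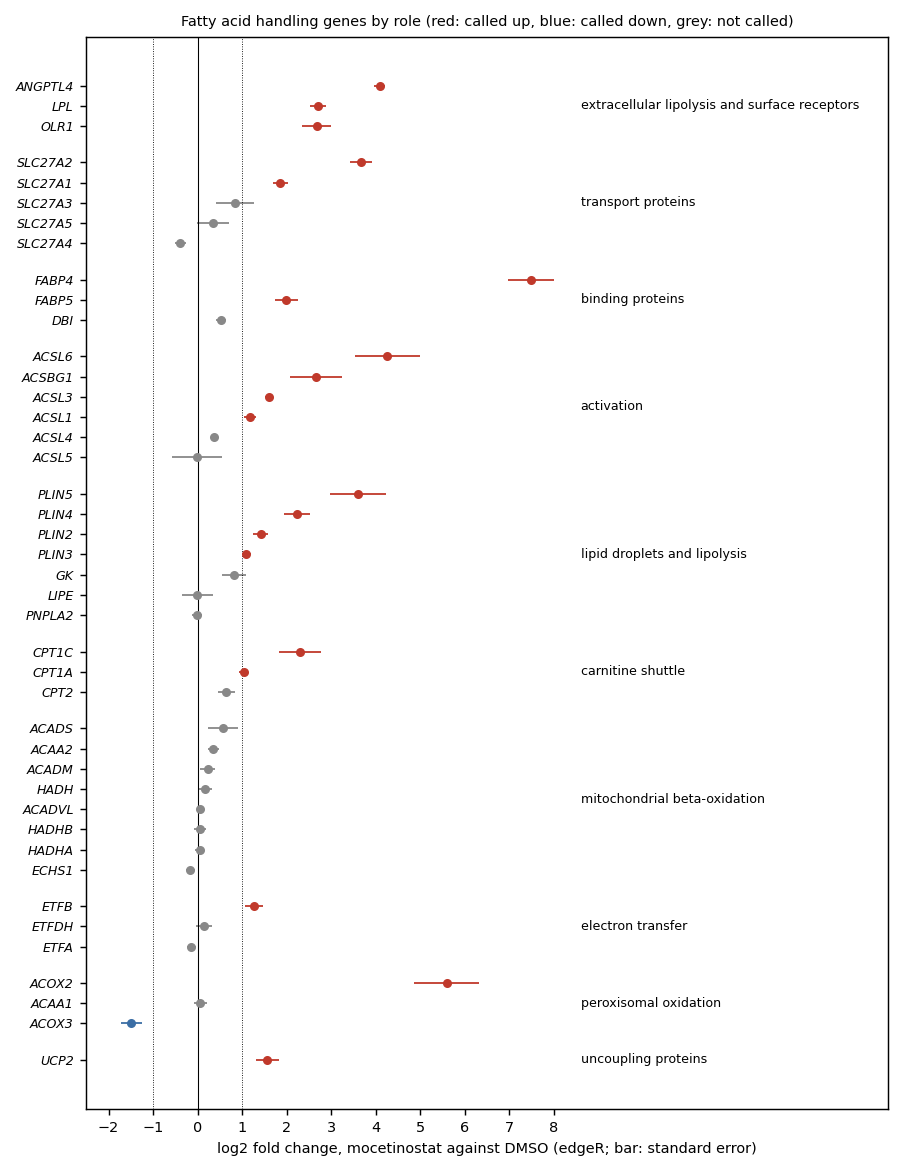
Log2 fold change of each of the 42 tested genes with mocetinostat against DMSO (horizontal axis; bar, SE of the edgeR fit), grouped by role; dotted lines mark log2 fold changes of -1 and 1. Upregulated genes (red) are found in all roles except mitochondrial β-oxidation, where the 8 tested genes lie between -0.17 and 0.56, and *ACOX3* is the single downregulated gene (blue) at -1.49.

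The promoters of a few genes with contrasting responses are shown to place the measurements on the genome. They are the 250 bases upstream of the start site in RefSeq (GRCh38.p14, written 5′ to 3′ on the gene's strand) of *ANGPTL4* (chr19:8363905-8364154, plus strand) and *SLC27A2* (chr15:50181946-50182195, plus strand), both upregulated, of *HADHB* (chr2:26244689-26244938, plus strand), which was not called, and of *ACOX3* (chr4:8440724-8440973, minus strand), the DRG. Capitals mark matches to GGGCGG, the GC box bound by SP factors, on either strand, and to TATAAA, the TATA box, on the gene's strand.
ANGPTL4: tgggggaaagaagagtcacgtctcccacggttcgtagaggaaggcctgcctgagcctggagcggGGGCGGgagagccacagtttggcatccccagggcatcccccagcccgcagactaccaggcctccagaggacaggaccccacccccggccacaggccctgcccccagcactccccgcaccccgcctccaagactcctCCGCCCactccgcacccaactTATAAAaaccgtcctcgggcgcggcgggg
SLC27A2: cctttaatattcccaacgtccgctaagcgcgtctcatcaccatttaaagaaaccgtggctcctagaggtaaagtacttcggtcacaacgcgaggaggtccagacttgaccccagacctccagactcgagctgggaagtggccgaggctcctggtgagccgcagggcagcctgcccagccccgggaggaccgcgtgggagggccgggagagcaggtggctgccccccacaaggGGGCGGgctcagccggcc
HADHB: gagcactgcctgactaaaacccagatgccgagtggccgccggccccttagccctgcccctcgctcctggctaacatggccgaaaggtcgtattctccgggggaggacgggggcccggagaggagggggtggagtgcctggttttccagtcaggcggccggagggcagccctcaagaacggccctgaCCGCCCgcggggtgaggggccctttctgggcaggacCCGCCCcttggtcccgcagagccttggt
ACOX3: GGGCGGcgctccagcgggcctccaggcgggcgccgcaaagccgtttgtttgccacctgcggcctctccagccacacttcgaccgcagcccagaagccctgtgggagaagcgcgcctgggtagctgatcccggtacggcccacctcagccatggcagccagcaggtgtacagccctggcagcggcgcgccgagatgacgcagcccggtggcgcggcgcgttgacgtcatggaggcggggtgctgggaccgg

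The TATA box of *ANGPTL4* lies from base -29 to base -24, counted back from the start site, and its GC boxes begin at -186 and -50. *SLC27A2* has a GC box at -18, *HADHB* has GC boxes at -64 and -28, and *ACOX3* has 1 at -250. The *HADHB* window lies between *HADHB* and *HADHA*, the genes of both subunits of the trifunctional protein, whose start sites are 307 bases apart and point away from each other. Windows were found for 46 of the 54 genes, among them 15 URGs and 19 tested genes that were not called. The PPAR response element, a direct repeat searched as 2 copies of AGGTCA with any 1 base between them on both strands, was in none of the 46 windows and in 6 of 35116 windows of all genes (0.0171%). Its single repeat unit AGGTCA was in 1 of the 15 URG windows and in 12.1% of all windows. A GC box was in 11 of the 15 URG windows (73.3%), in 14 of the 19 uncalled windows (73.7%) and in 42.6% of all windows. CCAAT was in 8 of the 15 URG windows (53.3%), in 6 of the 19 uncalled windows (31.6%) and in 32.0% of all windows, each on either strand. The median number of CpG dinucleotides per window was 17 in the URGs, 22 in the uncalled genes and 11 in all windows. A match is a description of the sequence only, and sites outside these windows were not searched.

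Genes that act on lipids outside the cell and at its surface had the highest median log2 fold change of the roles with at least 3 tested genes, 2.70, and all 3 of those tested were URGs. All 3 are in the term that the study drew from its URGs of these samples, so their direction and this rank are not independent evidence. No tested gene of mitochondrial β-oxidation is in that term. *ANGPTL4* encodes a secreted inhibitor of lipoprotein lipase and is a classical PPAR target (ENSG00000167772, chromosome 19 of GRCh38 from 8363289 to 8374370). Its level was 12.6, 14.4 and 12.4 CPM in DMSO replicates 1, 2 and 3, and 218, 240 and 208 CPM in mocetinostat replicates 1, 2 and 3. The conditions were far apart, with means of 13.1 ± 1.10 and 222 ± 16.7 CPM (SD, n = 3). The fitted change was 17-fold, a log2 fold change of 4.09 (SE 0.12, adjusted p = 2.77e-42, edgeR). *LPL*, the lipase that frees fatty acids from circulating triglyceride (ENSG00000175445), was at 10.4, 9.16 and 7.07 CPM with DMSO and at 65.4, 49.0 and 58.8 CPM with mocetinostat. Its log2 fold change was 2.70 (SE 0.18, adjusted p = 8.1e-23, edgeR), so that the lipase and its inhibitor rose together, the inhibitor more. *OLR1*, a scavenger receptor for oxidized lipoproteins (ENSG00000173391, chromosome 12 from 10158301 to 10172138), was tight with DMSO at 2.35, 2.50 and 2.36 CPM. After mocetinostat it was at 17.8, 20.5 and 7.87 CPM, with replicate 3 below the other 2 and still above all DMSO samples (log2 fold change 2.67, SE 0.34, adjusted p = 1.28e-10, edgeR). *CD36*, the fatty acid translocase, did not pass the filter, with 5, 5 and 1 reads with DMSO and 12, 1 and 15 with mocetinostat. The conditions overlapped in *CD36*, although fits that keep such genes gave adjusted p-values of 0.00929 (edgeR without the filter) and 0.0278 (DESeq2).

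The SLC27A family, also called fatty acid transport proteins, joins long and very long chain fatty acids to coenzyme A as they enter or move within the cell, and its members did not respond alike. Of 5 tested, 2 were URGs, 1 fell and 2 did not pass the test, with a median log2 fold change of 0.84. *SLC27A2*, which also works on very long chain fatty acids in peroxisomes (ENSG00000140284, chromosome 15 from 50182196 to 50236385), was at 2.35, 3.12 and 2.95 CPM with DMSO and at 30.7, 35.9 and 39.0 CPM with mocetinostat. The gap between conditions was wide against their spread (2.81 ± 0.404 to 35.2 ± 4.16 CPM, SD, n = 3), with a log2 fold change of 3.66 (SE 0.25, adjusted p = 4.78e-22, edgeR). *SLC27A1*, the muscle and adipose transporter (ENSG00000130304, chromosome 19 from 17468769 to 17506168), rose from 12.8, 11.9 and 14.9 to 46.4, 45.2 and 52.6 CPM (log2 fold change 1.86, SE 0.17, adjusted p = 8.51e-16, edgeR). *SLC27A4*, the main family member with DMSO, fell by 0.39 on the log2 scale (66.7, 64.6 and 65.4 to 49.4, 57.0 and 45.6 CPM, adjusted p = 0.0061, edgeR). The fall of *SLC27A4* turned to a log2 fold change of 0.15 when libraries were scaled to *GAPDH*, a reference gene that itself fell by 0.53 on the log2 scale under TMM. *SLC27A3* and *SLC27A5* did not pass, with log2 fold changes of 0.84 (adjusted p = 0.0758, edgeR) and 0.34 (adjusted p = 0.419, edgeR), and both overlapped between conditions. *SLC27A6*, below the filter, had 0, 1 and 6 reads with DMSO and 9, 4 and 7 with mocetinostat, a ratio of pooled levels of 7.13 (95% counting interval 2.90 to 20).

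Levels per kilobase of the canonical transcript were used to compare members of a family, although gene counts can include reads from other exons. The summed level of the SLC27A family was 28.8 CPM per kilobase with DMSO and 49.8 with mocetinostat. Within it, *SLC27A4* held 70.5% ± 1.70 (SD, n = 3) with DMSO and 31.5% ± 3.57 (SD, n = 3) with mocetinostat. *SLC27A2* went from 4.09% ± 0.570 to 29.6% ± 2.47 and *SLC27A1* from 13.1% ± 1.64 to 27.5% ± 2.03 (SD, n = 3). By this measure a family with 1 dominant member came to have 3 of like level, and the shares of these genes did not overlap between conditions. The like levels depend on the lengths used. The canonical transcript of *SLC27A1* has 3514 bases and its merged exons 8204, while *SLC27A4* has 3229 by either measure. Shares with merged exons were not computed. Exons of *ATP8B4* on the opposite strand cover 20% of those of *SLC27A2*, and whether the counting used strand is not given in the sources used here.

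**Figure D2:**
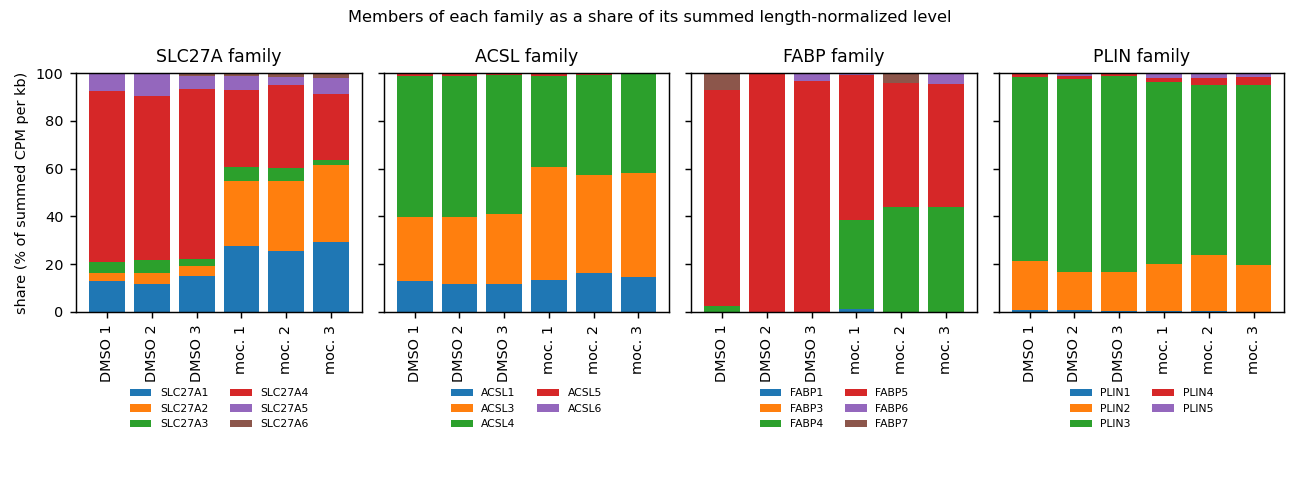
Share of each member in the summed length-normalized level of its family (CPM per kilobase of the canonical transcript, in percent) in each DMSO and mocetinostat (moc.) replicate, for the SLC27A, ACSL, FABP and PLIN families. *SLC27A4* fell from 70.5% to 31.5% of its family, *ACSL3* went from 27.9% to 44.2% of its family and came level with *ACSL4*, *FABP4* went from 0.814% to 41.6%, and *PLIN3* remained the main perilipin at 80.1% and 74.4%, all as means.

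Fatty acid binding proteins are small cytosolic carriers, and *FABP4* and *FABP5* were URGs. With *DBI*, all 3 tested binding proteins rose (median log2 fold change 1.99), and the other 4 of the 7 were below the filter. *FABP4* and *FABP5* are in the study's term, and 32.9% of all genes tested rose. *FABP4*, known from adipocytes and macrophages (ENSG00000170323, chromosome 8), had 2, 0 and 0 reads with DMSO and 101, 26 and 56 reads with mocetinostat. It was near the limit of counting in every DMSO sample, and after treatment it was at 20, 16.1 and 23.2 CPM. The ratio of pooled levels was 228 with a 95% counting interval of 62.3 to 1900, and the fitted log2 fold change was 7.49 (SE 0.52, adjusted p = 2.67e-21, edgeR). The fitted value depends on 1 library, being 9.36 without DMSO replicate 1, which holds both DMSO reads. *FABP5*, the epidermal form found in many tissues (ENSG00000164687, chromosome 8), went from 4.98, 4.79 and 5.60 CPM to 24.4, 14.3 and 20.3 CPM. All treated samples were above all DMSO samples (log2 fold change 1.99, SE 0.25, adjusted p = 1.7e-10, edgeR), and the 13 *FABP5* pseudogenes in the table held 19 reads over all samples. *DBI*, the acyl-CoA binding protein, rose from 88.9, 112 and 134 CPM to 181, 136 and 155 CPM. Its log2 fold change of 0.52 (SE 0.11, adjusted p = 1.82e-05, edgeR) did not reach the threshold for a call, and mocetinostat replicate 2 at 136 CPM was barely above DMSO replicate 3 at 134 CPM. *FABP3*, the heart form, had no read in any sample. *FABP1*, *FABP6* and *FABP7*, the forms of liver, ileum and brain, had 5 reads or fewer in each. Adipocyte, macrophage and hepatocyte markers were set beside *FABP4*. Adipocyte markers summed to 0.181 to 2.08 CPM with DMSO and 8.68 to 14.5 CPM with mocetinostat, where *CFD* was the 1 tested gene and a URG (ratio of pooled levels 64.3, 95% counting interval 24.4 to 240), while *LEP* and *RETN* were at 0. *ADIPOQ* pointed the other way on few reads (ratio of pooled levels 0.25, 95% counting interval 0.0058 to 1.75). The 5 macrophage markers summed to 4.57 to 7.70 CPM with DMSO and 10.5 to 16.1 CPM with mocetinostat, with *CD14* a URG (log2 fold change 2.73) and *CSF1R* not past the test (4.58 ± 1.22 and 2.71 ± 0.560 CPM, SD, n = 3; adjusted p = 0.141, edgeR). *CD163* had 9, 0 and 1 reads with DMSO and 10, 3 and 6 with mocetinostat, and *MARCO* 0, 0 and 0 and then 4, 0 and 4. *PTPRC* had 9 reads or fewer in each sample. The 5 hepatocyte markers, of another lineage, summed to 1.45 to 4.37 CPM with DMSO and 5.39 to 9.30 CPM with mocetinostat. Of these *SERPINA1* was a URG (log2 fold change 2.19) and *TTR* had no read. The markers' part in the result was not tested.

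Acyl-CoA synthetases trap fatty acids in the cell by joining them to coenzyme A, and 4 of the 6 were URGs (median log2 fold change 1.39). Of all genes tested, 20.2% were URGs. All 4 are in the term that the study drew from its URGs of these samples, so this count is not independent evidence. *ACSL6* and *ACSBG1* also reached the filter's level in mocetinostat samples only. *ACSL3*, which sits on the endoplasmic reticulum and nascent lipid droplets (ENSG00000123983, chromosome 2 from 222860942 to 222944639), was at 112, 110 and 109 CPM with DMSO and at 370, 301 and 331 CPM with mocetinostat. The DMSO samples were close together and every treated sample was far above them, and the log2 fold change was 1.6 (SE 0.09, adjusted p = 1.18e-26, edgeR). *ACSL1*, a major synthetase of adipose tissue, liver and heart and a PPAR target, rose from 35.7, 30.6 and 29.5 CPM to 68.4, 78.1 and 72.9 CPM (log2 fold change 1.17, SE 0.13, adjusted p = 3.04e-12, edgeR). *ACSL4*, which prefers arachidonic acid, rose by less, from 205 ± 13.7 to 266 ± 6.09 CPM (SD, n = 3; log2 fold change 0.38, adjusted p = 7.19e-05, edgeR), and its values did not overlap. It did not pass without the filter (log2 fold change 0.12, adjusted p = 0.375, edgeR), a fit in which *ACSL3* (1.35) and *ACSL1* (0.92) were lower as well. Per kilobase, *ACSL4* was the leading long chain synthetase with DMSO, at 58.9% ± 0.671 of the family against 27.9% ± 1.16 for *ACSL3* (SD, n = 3). With mocetinostat it held 40.3% ± 1.96 and *ACSL3* 44.2% ± 3.08 (SD, n = 3), and their order differed between replicates, since *ACSL4* was still the higher in replicate 2 (41.7% against 41.4%). This order also depends on the lengths used, which were 5577 bases for *ACSL3* and 4891 for *ACSL4*. Their merged exons cover 14436 and 9971 bases. The summed level of the family went from 71.0 ± 4.05 to 135 ± 4.71 CPM per kilobase (SD, n = 3).

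The other synthetases were rare. *ACSL6*, a form of brain and red blood cells, had 1, 3 and 0 reads with DMSO and 19, 7 and 9 with mocetinostat, a ratio of pooled levels of 21.8 (95% counting interval 7.81 to 84.6). Its fitted log2 fold change was 4.26 (adjusted p = 5.28e-07, edgeR) and was 5.61 without DMSO replicate 2. *ACSBG1*, the bubblegum synthetase of brain, adrenal gland and testis, went from 0.633, 0.208 and 0.737 CPM to 3.37, 4.34 and 3.73 CPM (log2 fold change 2.66, SE 0.59, adjusted p = 7.17e-05, edgeR), and 32.0% of its exons are overlapped by opposite-strand exons of *IDH3A*. *ACSL5* was at 2.62, 2.29 and 2.06 CPM with DMSO and scattered from 0.414 to 3.97 CPM with mocetinostat. It did not pass (log2 fold change -0.01, 95% interval -1.10 to 1.08), and the value was -1.62 without mocetinostat replicate 1.

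**Figure D3:**
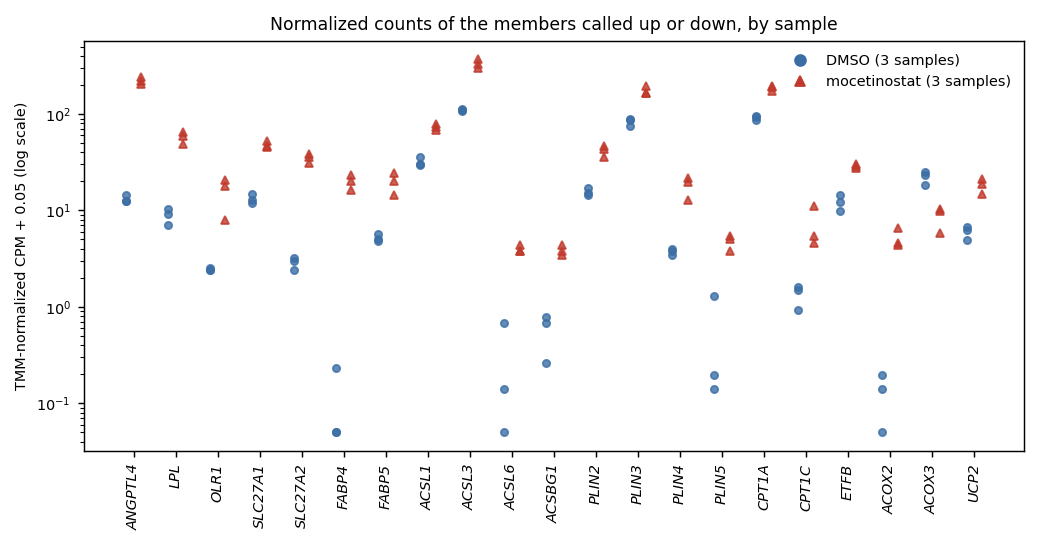
TMM-normalized CPM plus 0.05 (log scale) of the 20 upregulated genes and *ACOX3* in each of the 3 DMSO samples (circles) and the 3 mocetinostat samples (triangles). The conditions do not overlap in any of these genes, and *FABP4*, *ACSL6*, *ACSBG1*, *PLIN5* and *ACOX2* have DMSO samples with 0 or 1 read.

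The perilipins, which coat lipid droplets and regulate access of lipases, rose in all 4 tested members, and the tested lipases did not pass the test. Of the 7 droplet and lipolysis genes tested, 4 were URGs, 5 rose and 2 did not pass (median log2 fold change 1.09). Of these URGs all but *PLIN3* are in the study's term, and 20.2% of all genes tested were URGs. *PLIN3*, which moves between cytosol and droplets and was the leading perilipin per kilobase in both conditions, rose from 75.4, 86.2 and 88.9 CPM to 195, 167 and 165 CPM (log2 fold change 1.09, SE 0.10, adjusted p = 1.35e-15, edgeR). It was near the fold threshold, with 0.98 without mocetinostat replicate 1 and 1.00 (0.999 before rounding) without DMSO replicate 1. *PLIN2*, the ubiquitous droplet coat protein (ENSG00000147872, chromosome 9 from 19108375 to 19149290), rose from 17, 14.4 and 15.2 CPM to 43.2, 46.5 and 36.1 CPM (log2 fold change 1.41, SE 0.17, adjusted p = 3.55e-11, edgeR). Both genes had a clear gap between the highest DMSO and the lowest treated sample. *PLIN4*, abundant in adipocytes, went from 3.71, 3.96 and 3.39 CPM to 12.7, 19.8 and 21.6 CPM (log2 fold change 2.23, SE 0.29, adjusted p = 4.87e-10, edgeR). *PLIN5*, the form of oxidative tissues, had 1, 6 and 1 reads with DMSO and 27, 8 and 9 with mocetinostat. Its fitted log2 fold change of 3.60 (adjusted p = 1.01e-06, edgeR) was 5.10 without DMSO replicate 2 and 2.85 without DMSO replicate 1. *PLIN1*, the adipocyte form, was below the filter and differed by a log2 fold change of -0.52 in the fit without the filter (adjusted p = 0.695, edgeR).

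*PNPLA2*, which encodes adipose triglyceride lipase, was at 68.4 ± 2.02 CPM with DMSO and 67.5 ± 4.08 CPM with mocetinostat (SD, n = 3). The log2 fold change was -0.01 with a 95% interval of -0.25 to 0.22. *LIPE*, hormone-sensitive lipase, was at 5.18 ± 0.523 and 5.24 ± 0.488 CPM (SD, n = 3), with a wider interval of -0.70 to 0.69. *GK*, the glycerol kinase, rose from 7.15, 7.08 and 6.93 CPM to 10.9, 11.2 and 15.7 CPM, short of a call (log2 fold change 0.82, SE 0.27, adjusted p = 0.0066, edgeR). *GK* did not pass by DESeq2 (adjusted p = 0.0634), without the filter (adjusted p = 0.133, edgeR) or without mocetinostat replicate 3 (0.0771). *AQP7*, the glycerol channel, had too few reads to test. *MGLL*, monoglyceride lipase, which takes the last step of lipolysis and is in a separate list of the pathway, was a URG (14.9 ± 2.15 to 52.4 ± 6.64 CPM, SD, n = 3; log2 fold change 1.80, adjusted p = 1.69e-15, edgeR).

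The carnitine shuttle carries long chain acyl groups into mitochondria, and all 3 tested members rose, 2 of them as URGs (median log2 fold change 1.03). Of these URGs, *CPT1C* is in the study's term and *CPT1A* is not, and 20.2% of all genes tested were URGs. *CPT1A*, the liver form of the enzyme that controls entry (ENSG00000110090, chromosome 11 from 68754620 to 68844410), was at 86.3, 96.2 and 92.6 CPM with DMSO and at 190, 198 and 173 CPM with mocetinostat. The fitted 2.04-fold change (means of 91.7 ± 5.01 and 187 ± 12.8 CPM, SD, n = 3) was well measured but close to the threshold, with a log2 fold change of 1.03 (SE 0.10, adjusted p = 2.62e-15, edgeR). *CPT1A* was not called without DMSO replicate 1 (0.97), without mocetinostat replicate 2 (0.97), or by DESeq2 (1.00, or 0.995 before rounding). *CPT2*, the inner membrane enzyme, rose from 16.3, 18.1 and 13.9 CPM to 26.8, 19.2 and 26.9 CPM, with mocetinostat replicate 2 just above the DMSO samples (log2 fold change 0.64, SE 0.19, adjusted p = 0.00285, edgeR). *CPT2* did not pass by DESeq2 (adjusted p = 0.0577), without the filter (adjusted p = 0.149, edgeR) or thinned to equal totals (log2 fold change 0.30, adjusted p = 0.301, edgeR). *CPT1C*, a brain form on the endoplasmic reticulum, went from 1.54, 1.46 and 0.884 CPM to 5.35, 11.2 and 4.56 CPM (log2 fold change 2.30, SE 0.47, adjusted p = 1.89e-05, edgeR), with replicate 2 above the other treated samples. *CPT1A* nevertheless made up 95.2% of the summed CPT1 level per kilobase with DMSO and 92.8% with mocetinostat. *CPT1B*, the muscle form, was below the filter, and 66.4% of its exons are shared with the readthrough gene *CHKB-CPT1B*. *SLC25A20*, the carrier that exchanges acylcarnitine for carnitine and not among the 54 genes, was also a URG (7.78 ± 1.6 to 17.3 ± 2.28 CPM, SD, n = 3; log2 fold change 1.13, adjusted p = 4.0e-05, edgeR).

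Of the 8 tested enzymes of the β-oxidation spiral 0 were called under TMM, 1 rose by less than the fold threshold, and 7 did not pass the test. Their log2 fold changes were between -0.17 and 0.56 with a median of 0.11. Of all 13966 genes tested, 4981 did not pass, 20.2% were URGs and 8.18% were DRGs. *ACAA2*, the last thiolase step, was the gene that rose, from 55.9, 44.4 and 49.1 CPM to 61.3, 59.5 and 71.7 CPM (log2 fold change 0.35, adjusted p = 0.0132, edgeR). *ACAA2* did not pass by DESeq2 (adjusted p = 0.102), without the filter (adjusted p = 0.621, edgeR), without DMSO replicate 2 (0.139) or without mocetinostat replicate 3 (0.116). *HADHA*, the α subunit of the trifunctional protein, was at 109, 118 and 115 CPM with DMSO and at 114, 98.5 and 137 CPM with mocetinostat. *HADHB*, its β subunit, was at 61.4, 52.3 and 48.9 CPM and at 54.7, 58.9 and 57.2 CPM. In both subunits the conditions overlapped, and the 95% intervals of the log2 fold change were -0.16 to 0.25 and -0.20 to 0.31. The very long chain acyl-CoA dehydrogenase *ACADVL* (0.06, interval -0.10 to 0.23) and the enoyl-CoA hydratase *ECHS1* (-0.17, interval -0.37 to 0.04) were similarly well measured, so a 2-fold change lies outside these intervals. These values depend on the scaling. Scaled to *GAPDH*, *HADHA*, *HADHB*, *ACADVL* and *ECHS1* were at 0.58, 0.59, 0.59 and 0.36, where the median of all genes tested was 0.53. *ACADM* (0.23, interval -0.10 to 0.55) and *HADH* (0.17, interval -0.13 to 0.46) act on medium and short chains. *ACADS*, the short chain dehydrogenase, had a log2 fold change of 0.56 (interval -0.09 to 1.21, adjusted p = 0.134, edgeR), and its values did not overlap (3.68 to 6.46 against 6.63 to 9.30 CPM). *ACADL*, the long chain form, had 4, 0 and 0 reads with DMSO and 5, 1 and 2 with mocetinostat. Summed over all 9 genes, the level was 623, 643 and 604 CPM with DMSO and 638, 656 and 665 CPM with mocetinostat.

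Electrons from the acyl-CoA dehydrogenases pass to the electron transfer flavoprotein, and 1 of the 3 tested genes of this step was a URG (median log2 fold change 0.14). *ETFB*, the β subunit (ENSG00000105379, chromosome 19 from 51345169 to 51366388), rose from 9.77, 12.1 and 14.3 CPM to 27.4, 29.1 and 30.3 CPM. No treated sample came near the DMSO range (log2 fold change 1.27, SE 0.20, adjusted p = 6.01e-08, edgeR). *ETFA*, the α subunit, was at 120 ± 4.13 CPM with DMSO and 109 ± 7.37 CPM with mocetinostat (SD, n = 3; log2 fold change -0.14, 95% interval -0.34 to 0.06). Per kilobase, *ETFA* was at 52.4 ± 1.80 and *ETFB* at 13.8 ± 2.6 with DMSO, and at 47.4 ± 3.22 and 33.2 ± 1.67 with mocetinostat (SD, n = 3). The levels of the partners were therefore closer after treatment. *ETFDH*, which hands the electrons to ubiquinone, had a log2 fold change of 0.14 (95% interval -0.19 to 0.48). The difference between the responses of *ETFA* and *ETFB* was not tested.

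**Figure D4:**
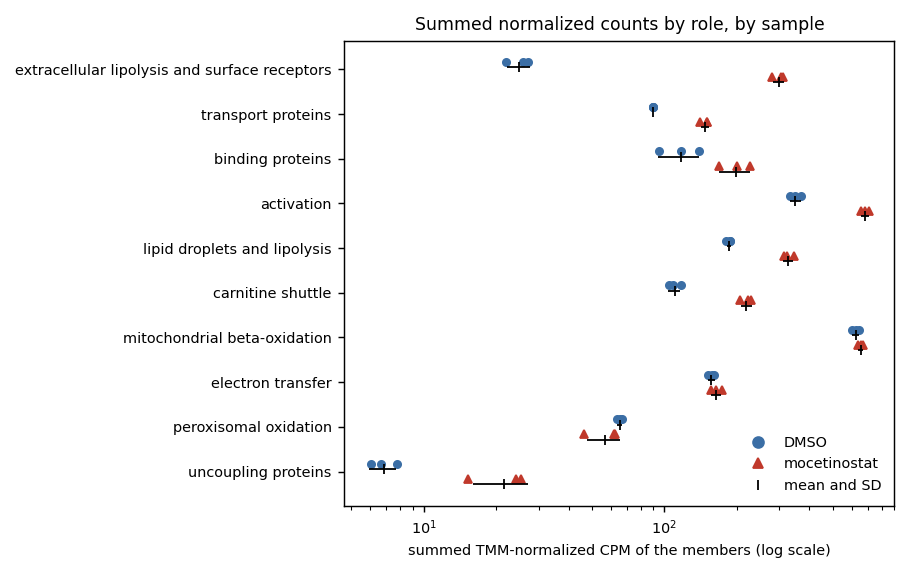
Summed TMM-normalized CPM of the genes of each role (horizontal axis, log scale) in each DMSO sample (circles) and mocetinostat sample (triangles), with mean and SD. Surface and extracellular genes went from 24.9 to 298 CPM and activation genes from 350 to 683 CPM, while mitochondrial β-oxidation genes were at 623 and 653 CPM.

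Peroxisomal oxidation, which shortens very long and branched chains, had 1 URG and the single DRG among 3 tested genes (median log2 fold change 0.06). *ACOX2*, the oxidase of branched chains and bile acid intermediates (ENSG00000168306, chromosome 3 from 58505136 to 58537283), had 1, 0 and 1 reads with DMSO and 33, 7 and 11 with mocetinostat. The ratio of pooled levels was 63.7 (95% counting interval 16.7 to 540), and the fitted log2 fold change was 5.60 (adjusted p = 4.25e-10, edgeR). *ACOX3*, the pristanoyl-CoA oxidase, which also takes branched chains (ENSG00000087008, chromosome 4 from 8366282 to 8440723), moved the other way. It was at 25.1, 18.3 and 23.3 CPM with DMSO and at 5.75, 9.92 and 10.4 CPM with mocetinostat, so every treated sample was below every DMSO sample. *ACOX3* was 2.81-fold lower (log2 fold change -1.49, SE 0.24, adjusted p = 1.01e-07, edgeR), and under *GAPDH* scaling it was -0.95 and no longer called. Per kilobase, *ACOX3* was at 7.74 ± 1.22 and *ACOX2* at 0.0345 ± 0.0324 with DMSO, and at 3.02 ± 0.886 and 2.24 ± 0.528 with mocetinostat (SD, n = 3). The levels of the branched chain oxidases were thus closer after treatment. In mocetinostat replicates 1, 2 and 3, *ACOX3* was at 2.00, 3.45 and 3.61 per kilobase and *ACOX2* at 2.85, 1.89 and 1.98. Their order therefore differed between replicates. *ACAA1*, the peroxisomal thiolase, was at 42.8 ± 2.64 and 42.9 ± 9.39 CPM (SD, n = 3; log2 fold change 0.06, 95% interval -0.22 to 0.34).

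Uncoupling proteins are carriers of the mitochondrial inner membrane, of which *UCP1* produces heat in brown fat. *UCP2*, the widely expressed form (ENSG00000175567, chromosome 11 from 73974672 to 73982843), rose from 6.69, 6.25 and 4.86 CPM to 14.7, 18.6 and 21.1 CPM. The conditions were well apart (log2 fold change 1.56, SE 0.26, adjusted p = 2.64e-07, edgeR). *UCP1* was below the filter, with 2, 0 and 2 reads with DMSO and 3, 8 and 6 with mocetinostat, a ratio of pooled levels of 10.6 (95% counting interval 3.46 to 43.3). A call for *UCP1* was made by edgeR without the filter (adjusted p = 0.00732) and by DESeq2 (adjusted p = 0.00603). *UCP3*, the muscle form, had too few reads to test, and in the fit without the filter it did not pass (adjusted p = 0.753, edgeR).

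Genes around these 54 were read from the same fit, in lists taken by textbook role. Of 8 tested PPAR receptors and coactivators, 1 was a URG (*PPARGC1A*, the coactivator PGC-1α, log2 fold change 5.05, adjusted p = 5.68e-20, edgeR), 1 was a DRG (*PPRC1*, a related coactivator, -1.19, adjusted p = 3.42e-16, edgeR), 3 rose and 3 fell. Of 16 other tested PPAR targets, 7 were URGs, 0 were DRGs, 10 rose and 2 fell, where 20.2% of all genes tested were URGs and 32.9% rose. *PCK1*, the gluconeogenic carboxykinase and a URG, had 0, 2 and 2 reads with DMSO and 11, 5 and 6 with mocetinostat, a ratio of pooled levels of 13.7 (95% counting interval 4.66 to 54.8). The other URGs include *SCD5* and *FADS2*, which desaturate fatty acids (1.70 and 1.07), and *HMGCS1*, of cholesterol synthesis (1.15), all as log2 fold changes. *MMP1*, a collagenase (1.92), and *EHHADH*, the peroxisomal bifunctional enzyme (1.44), were URGs as well, and these genes are also in the term that the study drew from its URGs. Of 23 other tested oxidation and droplet genes, 5 were URGs, 0 were DRGs, 9 rose and 3 fell (median 0.22 on the log2 scale). The shares of URGs (21.7%) and of genes that rose (39.1%) in this list were near those of all genes tested (20.2% and 32.9%). Beside *SLC25A20* and *MGLL* these include *ABCD2*, which imports very long chain acyl-CoA into peroxisomes (log2 fold change 3.56), and *MLYCD*, which breaks down malonyl-CoA, the inhibitor of CPT1 (1.07). *ABCD2* was low with DMSO, at 0.515 ± 0.288 CPM against 5.81 ± 3.24 CPM with mocetinostat (SD, n = 3).

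Scaling to *GAPDH* moved the median log2 fold change of all genes tested from -0.00 to 0.53. Under it 25 of the 42 genes were URGs and 0 were DRGs, and 94.0% of all calls were URGs against 71.2% under TMM. Without a minimum fold change, 38 of the 42 rose and 1 fell under *GAPDH* scaling, against 25 and 2 under TMM. The share of all genes that rose under *GAPDH* scaling was not computed. The 11 tested genes of mitochondrial β-oxidation and electron transfer had a median log2 fold change of 0.14 under TMM and 0.68 under *GAPDH* scaling, against -0.00 and 0.53 for all genes tested. Without the filter the median of these 11 genes was -0.10, against 0.25 over the 40504 genes then tested. In that fit *ANGPTL4* went from 4.09 to 3.84, *CPT1A* from 1.03 to 0.78 and *HADHA* from 0.05 to -0.21. A gene that did not pass or was not called without the filter therefore shared a lower value with well-measured genes, and the cause was not tested.

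**Figure D5:**
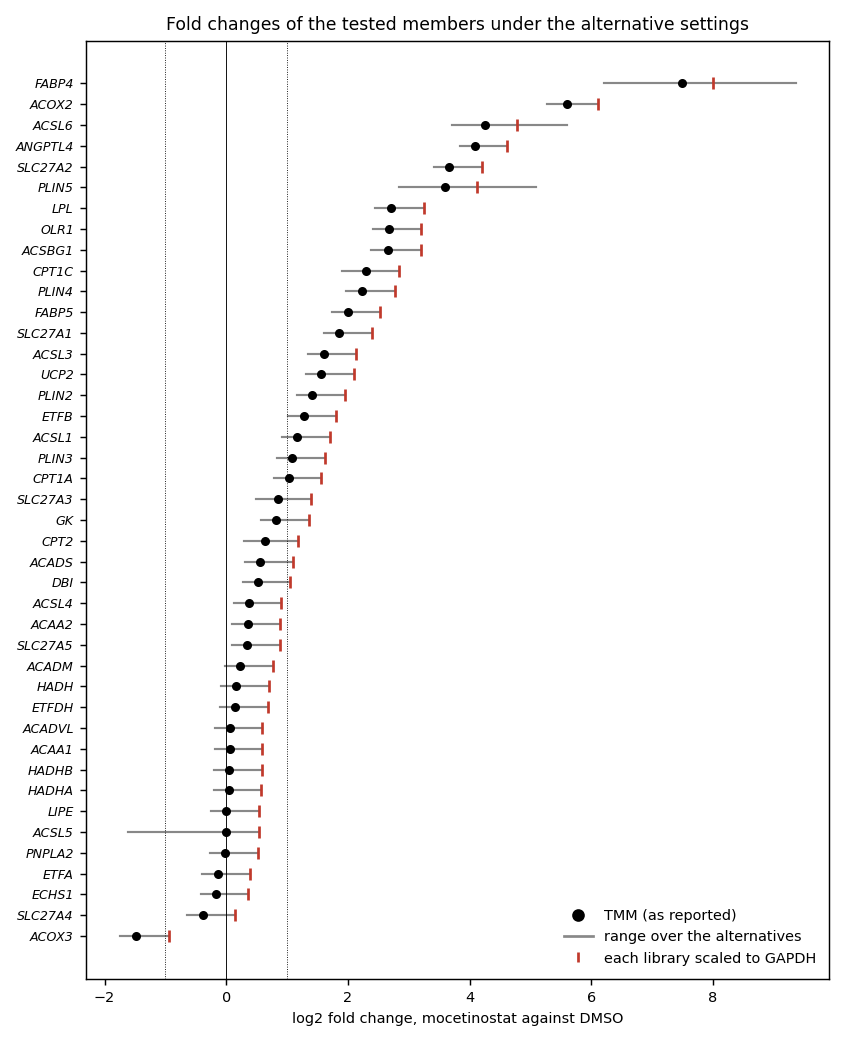
Log2 fold change of the 42 tested genes (point, TMM) with its range over the 13 to 15 alternative settings in which it was fitted (line) and its value with each library scaled to *GAPDH* (red tick); dotted lines mark -1 and 1. *FABP4*, *ACSL6* and *PLIN5*, which had few DMSO reads, have wide ranges, and *ACOX3* is below 0 under each setting.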

How the data were processed

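High-throughput RNA-Seq was available for 6 samples of TC28a2 cells. The authors deposited 1 table of raw counts of reads per gene, without normalization. As described in the methods, adapters were trimmed, ribosomal RNA reads were removed, and single reads were aligned to GRCh38 with STAR version 2.6.1d and assigned to genes with featureCounts version 1.6.4 (versions also in the submitters' processing notes). Strand settings and the treatment of multimapping reads are not given in the sources used here.

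The 54 genes and all lists were chosen with earlier results of these data known. All 54 may be named, grouped by role. Sample values are given for genes called, and for genes with a log2 fold change beyond 0.5 in either direction at an adjusted p under 0.05. From other lists, genes called are named, except some that are not reported here.

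From the counts, edgeR version 4.0.16 (R 4.3.3) computed TMM factors and, with filterByExpr at a minimum count of 10, tested 13966 of 60623 genes by its quasi-likelihood test with treatment as the only term. Standard errors were derived from the F statistic, and the 95% intervals of log2 fold changes are normal approximations from them. Such errors can be unstable for a log2 fold change near 0. For *ACSL5* the SE was 0.56 under TMM, 0.44 with RLE factors and 0.21 with library size only. For genes with few DMSO reads, ratios of pooled levels are given with exact 95% intervals, which cover counting error only. GENCODE release 44 gave positions, exon overlaps and canonical transcript lengths, and 99.5% of the gene identifiers matched it. Promoter windows are from RefSeq. Summaries used Python 3.11.15 and pandas 2.3.3, and plots matplotlib 3.10.9. Replicates within a condition differed by more than sampling noise (chi-square per degree of freedom 1.93 to 7.95). The biological coefficient of variation was 9.30%. Alternatives were DESeq2 version 1.42.0, RLE factors, library size only, *GAPDH* scaling, no filter, at least 10 counts in every sample, glmTreat, a replicate block, thinning to 1619344 counts, and each sample left out. The fit was tested on simulated data. Other experiments of the study were not analysed here.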

Additional observations from a re-analysis of the deposited data

How the results depend on the processing

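The number of fatty acid handling genes called upregulated, 20, was between 14 (at least 10 counts in every sample) and 25 (*GAPDH* scaling), and between 20 and 23 with each sample left out, when 1 was called downregulated each time. Under *GAPDH* scaling 0 were called downregulated, and over all genes 4425 were upregulated and 284 downregulated. With at least 10 counts in every sample these were 1620 and 704, without the filter 2120 were downregulated (60.2% of calls up), and with glmTreat, which tests against the fold threshold, 465 were downregulated (81.6% of calls up). Over all genes, leaving out samples gave 2842 to 3216 upregulated and 1173 to 1267 downregulated genes. Under *GAPDH* scaling the sign turned for *SLC27A4* (0.15), *PNPLA2* (0.52), *ECHS1* (0.36) and *ETFA* (0.39), each with an adjusted p under 0.05 (edgeR) in 1 of the fits. Signs of small log2 fold changes that did not pass the test in either fit turned under at least 1 alternative for *PNPLA2*, *ACSL5*, *LIPE*, *ACADM*, *ACADVL*, *HADH*, *HADHA*, *HADHB*, *ETFDH* and *ACAA1*. *ACSL1*, *PLIN3*, *CPT1A* and *ETFB* were not called by glmTreat, and the first 3 not without the filter (0.92, 0.84 and 0.78). Each gene was fitted under 13 to 15 alternatives, and over all of them 13 values lost the call of their gene and 7 gained one. Deviations of samples with the same replicate number correlated at between -0.02 and 0.01, so no effect shared by number was visible. Whether the cultures were paired by experiment cannot be told from these correlations. With the replicate number as a block, 20 of the genes were upregulated and 1 downregulated, the same 20 included, and 2798 and 1133 of all genes. Depth limits the genes with few DMSO reads most: thinned to 1619344 counts per sample, 34 were tested and 16 upregulated, of which 15 were among the 20.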
